A study of Mus musculus with 6 samples.

Results

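The genes described here carry fatty acids into the heart muscle cell and burn them in its mitochondria. All 33 genes of a set list (uptake, activation, carnitine shuttle, oxidation and electron transfer) were found by gene name on the arrays, with 42 probes, among 36084 genes and 55661 probes in all. RNA came from hearts of male C57BL/6 mice, 8 weeks old, in which the left anterior descending coronary artery had been tied to cause an infarct 21 days earlier. One group of 3 samples had received, by tail vein on 3 consecutive days, 80 mg/kg of an antagomir against miR-433, an oligonucleotide that binds and blocks this microRNA. The other group of 3 had the scrambled control oligonucleotide and the same infarct, so that no uninjured heart enters the comparison. The labels name neither the part of the heart taken nor whether each array holds 1 mouse, so p-values measure only the spread between these samples, which may be technical.

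Long-chain fatty acids are the main fuel of the adult heart. Lipoprotein lipase frees them from circulating triglyceride, transporters and binding proteins bring them in, and synthetases couple them to coenzyme A. The carnitine shuttle then moves the acyl groups into mitochondria, where each turn of beta-oxidation shortens the chain and hands electrons to the respiratory chain. Transcription of these enzymes is driven by the PPAR, ERR and PGC-1 regulators, and a failing heart is known to use less fatty acid.

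The microRNA that was blocked lies on chromosome 12 (GRCm38.p6). Its mature arms, from RefSeq, are shown with the seed, bases 2 to 8, in capitals. The labels do not name the arm that the antagomir binds.
mmu-miR-433-3p: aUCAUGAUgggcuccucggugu
mmu-miR-433-5p: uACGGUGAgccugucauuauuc

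The share of gene spots brighter than background was 73.6% on antagomir array 3, and it ran from 55.2% to 58.5% on the remaining arrays. Across the genes tested, whose values are not independent, pairs of arrays correlated at 0.953 to 0.992. The heart muscle marker Myh6, the adult myosin heavy chain, had levels of 9.07 to 9.32 on the 6 arrays. Each level is the log2 signal of a gene's probe minus the 75th percentile of its array, and each difference is the antagomir mean minus the control mean on that log2 scale, with n = 3 per group and the standard error (SE) from limma. The number of arrays limits the precision.

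Most of the fatty acid genes had a higher mean in the antagomir hearts, by small amounts, and none passed the test. Of 33 genes 31 were higher and 2 lower, with a median difference of 0.45, a 1.36-fold difference. All 42 probes were well above background on all 6 arrays, so no gene was lost to the filter. Over all 22991 genes tested, 62.6% were higher and the median was 0.09. No member reached a limma adjusted p under 0.05 (0 of 33, against 0.013% of all genes, and adjusted p = 0.691 to 0.924). At an unadjusted p under 0.05 there were also 0 of 33, against 3.05% of all genes higher and 4.16% lower. For 13 of the 33 every antagomir array lay above every control array, against 8.78% of all genes, and for 0 of 33 every antagomir array lay below, against 6.93%.

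Scaling by another constant per array moves all genes together, so the sign of a difference has meaning only beside all genes. Median in place of 75th percentile scaling shifted every gene by −0.47. With each array scaled by its median, which puts the median of all genes at −0.38, 15 of 33 members were higher, against 13% of all genes, and 0 were without overlap, against 0.831%. With quantile scaling the median of all genes was −0.03, 29 members were higher, against 45.8% of all genes, and 7 were without overlap, against 6.75%. Measured from the median of all genes tested, the median of the members was 0.35 higher with the 75th percentile, and by construction the same with the median. It was 0.32 higher with quantile scaling and 0.31 with normexp background correction.

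**Figure D1:**
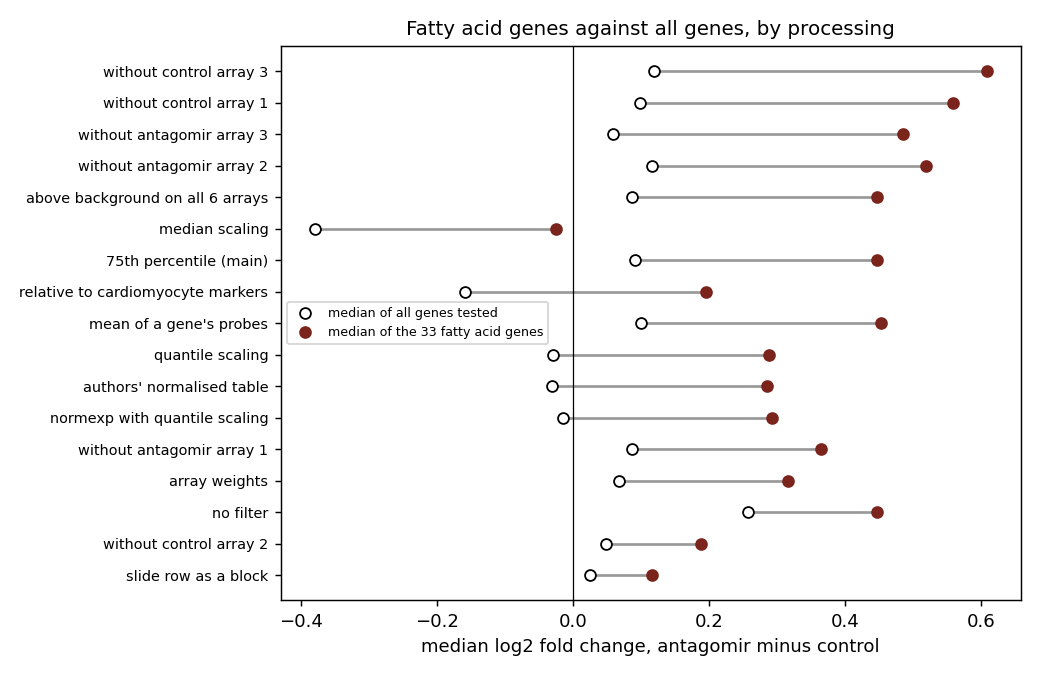
Median log2 fold change (antagomir minus control, horizontal axis) of the 33 fatty acid genes, filled, and of all genes tested, open, for each way of processing in the rows, ordered by the distance between both points. The filled point lies to the right of the open point in every row, and the distance is shortest (0.09) with the slide row as a block and 0.14 without control array 2; with median scaling both medians are below 0.

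Control array 2 stood apart in these genes. It had the lowest level of the 6 arrays for 29 of 33 members, against 36.7% of all genes, and antagomir array 1 had the highest for 28, against 24.9%. Relative to the control mean, the average member stood at 0.20, −0.49 and 0.29 on the 3 control arrays in order. The antagomir arrays followed at 0.60, 0.33 and 0.34. Control arrays 1 and 3 therefore lay close to antagomir arrays 2 and 3. Control array 2 was also lowest on average for 42 other genes of fatty acid handling (−0.43) and for 12 cardiomyocyte markers (−0.22), described below. The SD between control arrays was larger than that between antagomir arrays for 28 of 33 members, against 39.8% of all genes, with medians of 0.47 and 0.18. For 32 of 33 members the distance of control array 2 from the mean of control arrays 1 and 3 was larger than that of the antagomir mean. Without control array 2, 30 of 33 were higher, against 60.4% of all genes, with a median of 0.19 against 0.048, and 13 were without overlap, against 10.2%. Control arrays 1 and 2 lay in row 1 of the slide and the other 4 arrays in row 2. Within row 2, where control array 3 is the only control, the median was 0.12 and 31 of 33 were higher, against 55.3% of all genes.

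**Figure D2:**
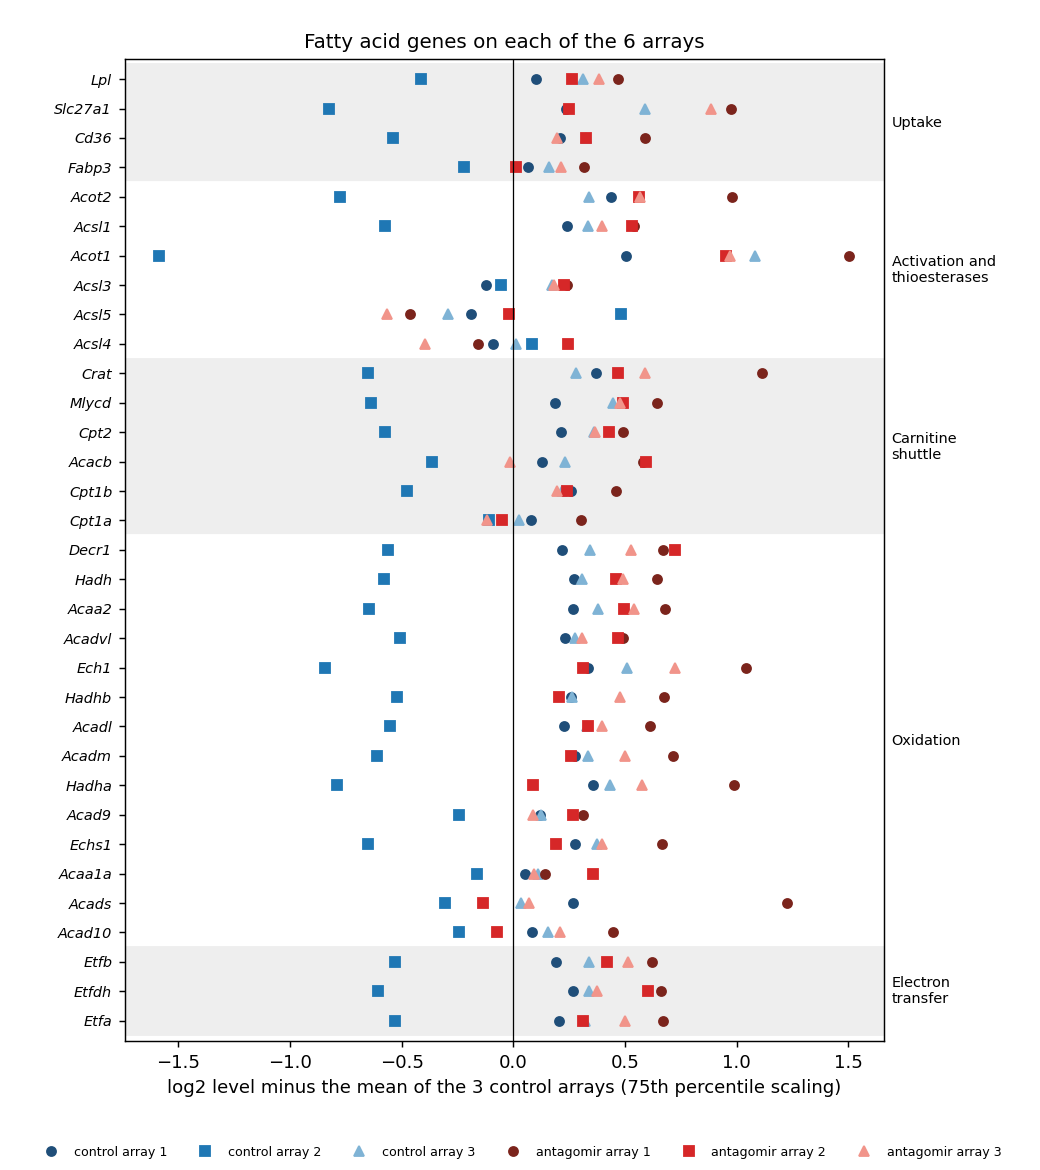
Log2 level of each of the 33 fatty acid genes on each array minus the mean of the 3 control arrays (horizontal axis, 75th percentile scaling), with genes in rows by metabolic step and 1 point per array. Control array 2 is the leftmost point for 29 genes, and the other 2 control arrays lie among or just left of the antagomir arrays.

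The 4 uptake genes had higher means in the antagomir hearts, with a median of 0.37, and groups overlapped for all 4. With quantile scaling Fabp3 turned lower, and with median scaling Lpl, Cd36 and Fabp3 did. Lpl encodes lipoprotein lipase, which frees fatty acids at the vessel wall. Its probe lies on chromosome 8 from 71430267 to 71430326 (mm9, the build of the array design). Lpl levels were 8.44, 7.92 and 8.65 in controls 1 to 3, and 8.80, 8.60 and 8.72 with the antagomir in the same order. Control array 2 was lowest, and antagomir array 2 lay just below control array 3. The difference was 0.37 (SE 0.22, limma adjusted p = 0.691), and 0.17 without control array 2.

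Slc27a1, the fatty acid transport protein FATP1 (chromosome 8 from 74110256 to 74110315), had levels of 3.26, 2.20 and 3.62 in controls and 4.0, 3.27 and 3.91 with the antagomir. Antagomir array 2 was within the control range and the other two above it. The difference was 0.70 (SE 0.41, limma adjusted p = 0.691), and 0.29 without control array 2. Cd36, the membrane fatty acid translocase, had a difference of 0.37 (SE 0.27), and Fabp3, the fatty acid binding protein of heart muscle, of 0.18 (SE 0.17). Without control array 2 these were 0.10 and 0.07.

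Activation was the step where members went different ways. Of 4 long-chain acyl-CoA synthetases, Acsl1 and Acsl3 were higher and Acsl5 and Acsl4 lower, and both cytosolic and mitochondrial thioesterases, Acot1 and Acot2, were higher. Acsl1, the main synthetase of heart muscle (chromosome 8 from 47621232 to 47621291), had levels of 7.32, 6.51 and 7.41 in controls and 7.62, 7.61 and 7.48 with the antagomir. The groups were apart, with control array 3 just below antagomir array 3. Its difference was 0.49 (SE 0.27, limma adjusted p = 0.691), and 0.20 without control array 2. Acsl3, which serves lipid droplets and lipid synthesis, was apart too, with a difference of 0.22 (SE 0.14). Its probe was the dimmest of the members, with signals of 83 to 97. The groups were apart only narrowly, with control array 3 at −2.115 and antagomir array 3 at −2.110. Acsl3 turned lower with quantile scaling (−0.10), median scaling (−0.26) and normexp (−0.0445).

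Acsl5, a synthetase of liver and gut known to favour triglyceride synthesis, had levels of 0.76, 1.44 and 0.66 in controls and 0.49, 0.93 and 0.39 with the antagomir. Here control array 2 was the highest of the 6, the opposite of its place for most members, and antagomir array 2 lay above control arrays 1 and 3. The difference was −0.35 (SE 0.27, limma adjusted p = 0.695), and −0.11 without control array 2. Acsl4, which prefers arachidonic acid, had levels of 2.03, 2.20 and 2.13 in controls and 1.96, 2.36 and 1.72 with the antagomir. The control values lay within the antagomir range. Its difference was −0.10 (SE 0.20, limma adjusted p = 0.854) and turned to 0.04 without antagomir array 3.

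The thioesterases, which cut acyl-CoA back to free acid, had higher means, and both differences were smaller without control array 2. Acot2, the mitochondrial form (chromosome 12 from 85334071 to 85334130), had levels of 1.78, 0.57 and 1.69 in controls and 2.33, 1.91 and 1.91 with the antagomir. All antagomir values lay above all controls. Its difference was 0.70 (SE 0.36, limma adjusted p = 0.691), and 0.32 without control array 2. Acot1, the cytosolic form and a known PPAR-alpha target, had levels of 2.93, 0.84 and 3.51 in controls and 3.93, 3.38 and 3.40 with the antagomir. Control array 2 was more than 2 log2 units under every other array, and control array 3 lay above 2 of the antagomir arrays. The difference of 1.14 (SE 0.69), the largest of the members over all 6 arrays, was 0.35 without that array, below Crat and Decr1, and 0.06 with the slide row blocked. Acot1 and Acot2 are near neighbours in sequence. Their 60-base probes share no run longer than 6 bases and match at no more than 25 of 60 positions without gaps. The probes were compared only with each other, so whether each binds the other gene's transcript was not tested.

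All 6 genes of the carnitine shuttle and its control had higher means, with a median of 0.41, and 3 were without overlap (62.6% and 8.78% of all genes). With median scaling Cpt2, Acacb, Cpt1b and Cpt1a turned lower. Crat, carnitine acetyltransferase, which buffers short acyl groups (chromosome 2 from 30265479 to 30265538), had levels of 0.48, −0.54 and 0.39 in controls and 1.22, 0.58 and 0.70 with the antagomir. The groups were apart, with antagomir array 1 highest. The difference was 0.72 (SE 0.33, limma adjusted p = 0.691), and 0.40 without control array 2. Mlycd, malonyl-CoA decarboxylase, which removes the inhibitor of the shuttle (chromosome 8 from 121934893 to 121934952), had levels of 5.58, 4.76 and 5.84 in controls and 6.04, 5.89 and 5.87 with the antagomir. Control array 3 was just below antagomir arrays 2 and 3. The difference was 0.54 (SE 0.29, limma adjusted p = 0.691), and 0.22 without control array 2.

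Acacb makes the malonyl-CoA that Mlycd removes, and its difference, 0.39 (SE 0.25), had the same sign. Cpt2, the inner membrane transferase, was without overlap (0.43, SE 0.27), and its other probe gave 0.77. Cpt1b and Cpt1a encode the muscle and the liver form of the outer membrane transferase, the gate of the shuttle. Cpt1b had a difference of 0.30 (SE 0.24) and Cpt1a of 0.05 (SE 0.17), and without control array 2 they were 0.06 and −0.0073. Cpt1a also turned lower without antagomir array 1 (−0.083). Its probes disagreed in size: the other one, dimmer but above background on all 6 arrays, gave 0.43 (SE 0.24), and the mean of both 0.24. The size of the Cpt1a difference is therefore uncertain.

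All 14 genes of the oxidation spiral had higher means with the 75th percentile, with quantile scaling and without control array 2, with medians of 0.45, 0.29 and 0.18. With median scaling their median was −0.02 and 8 turned lower (Acaa1a, Acad10, Acad9, Acadl, Acads, Acadvl, Echs1 and Hadhb). In 5 of the 14 the groups were apart, against 8.78% of all genes: Decr1, Hadh, Acaa2, Acadvl and Acadl. Decr1, the reductase needed for polyunsaturated fatty acids (chromosome 4 from 15846075 to 15846134), had levels of 7.58, 6.80 and 7.71 in controls and 8.04, 8.09 and 7.89 with the antagomir. It had the smallest p of the members. The difference was 0.64 (SE 0.26, limma adjusted p = 0.691), with a 95% interval from −0.0042 to 1.29. Without control array 2 it was 0.36 (SE 0.14).

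Hadh, the short-chain hydroxyacyl-CoA dehydrogenase (chromosome 3 from 130936889 to 130936948), had levels of 6.61, 5.76 and 6.65 in controls and 6.99, 6.80 and 6.83 with the antagomir. All antagomir values lay above all controls. The difference was 0.53 (SE 0.27, limma adjusted p = 0.691), and 0.24 without control array 2. Among the acyl-CoA dehydrogenases, which open each turn of the spiral, Acadvl (very long chains), Acadl (long) and Acadm (medium) had differences of 0.42, 0.45 and 0.49, and Acads (short) of 0.39. The Acads value turned to −0.033 without antagomir array 1, where its level was 2.81 against 1.28 to 1.85 on the other arrays. Acad9, better known for assembly of respiratory complex I, and Acad10 had differences of 0.22 and 0.19.

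Hadha and Hadhb encode the subunits of the trifunctional protein, which carries out the later reactions on long chains. Their differences were 0.55 (SE 0.40) and 0.45 (SE 0.27), and groups overlapped in both. Acaa2, the mitochondrial thiolase that ends each turn, had a difference of 0.57 (SE 0.29), whereas Acaa1a, the peroxisomal thiolase, had 0.20 (SE 0.15). Ech1, an isomerase for unsaturated chains, had 0.69 (SE 0.40), and Echs1, the short-chain hydratase, 0.42 (SE 0.31), with groups overlapping. Without control array 2 the 14 differences ran from 0.07 for Acad10 to 0.36 for Decr1.

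**Figure D3:**
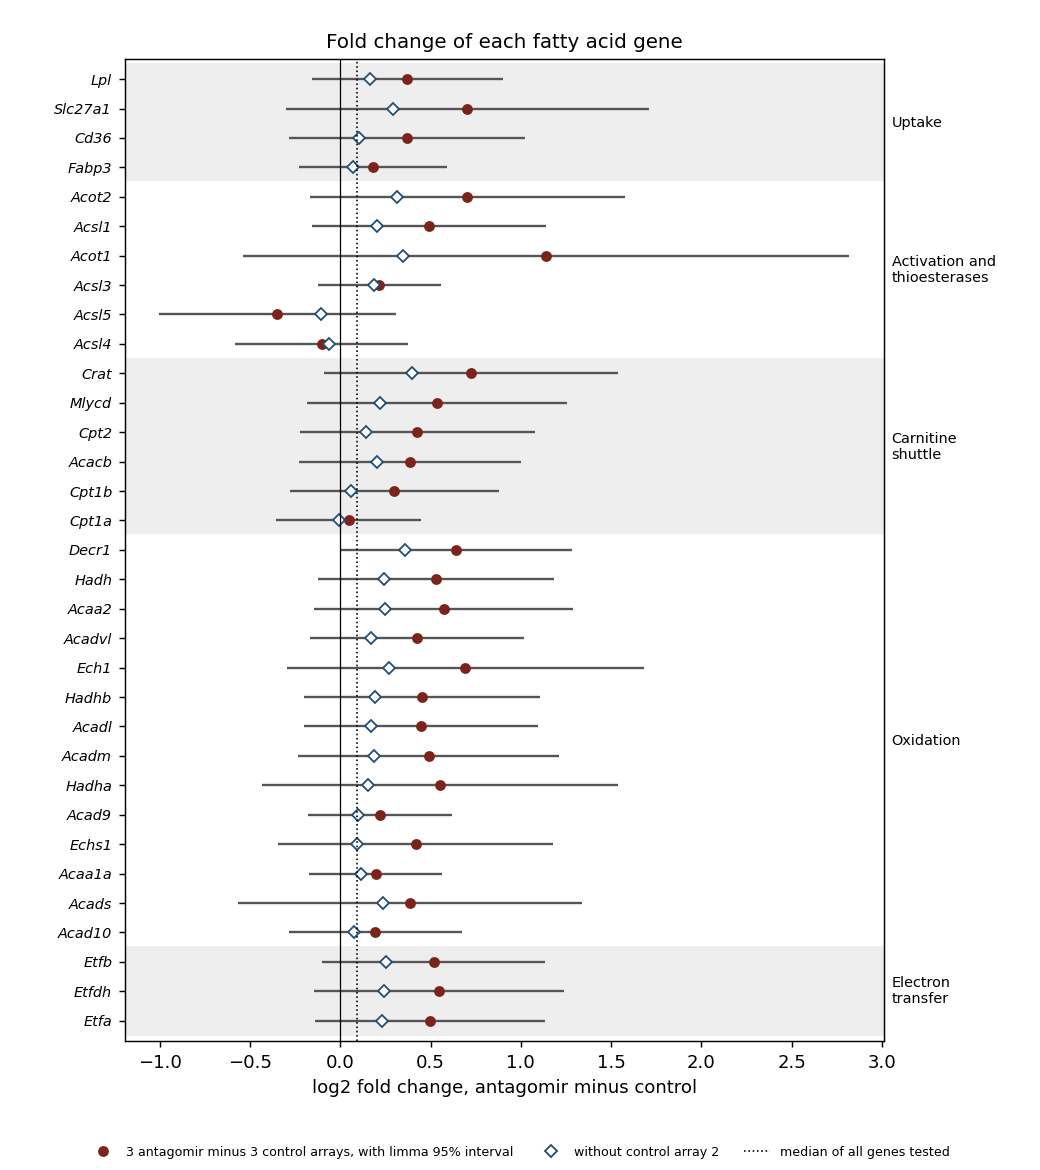
Log2 fold change (antagomir minus control, 75th percentile scaling) of each fatty acid gene with its limma 95% interval as a line (n = 3 per group), and the same value without control array 2 as an open diamond. All 33 intervals include 0, the dotted line marks the median of all genes tested (0.09), and the diamonds lie nearer to 0 than the filled points for all 33; with median scaling 15 of 33 genes are higher.

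Electron transfer flavoprotein, made of the Etfa and Etfb chains, takes electrons from the acyl-CoA dehydrogenases, and Etfdh passes them to ubiquinone. All 3 genes had higher means, from 0.49 to 0.55, and all 3 stayed higher with quantile, median and normexp scaling and with every array left out in turn. Etfb (chromosome 7 from 50713092 to 50713151) had levels of 8.66, 7.94 and 8.80 in controls and 9.09, 8.89 and 8.98 with the antagomir. The groups were apart, with antagomir array 2 nearest to control array 3. The difference was 0.52 (SE 0.25, limma adjusted p = 0.691), and 0.25 without control array 2. Etfdh (chromosome 3 from 79407806 to 79407865) had levels of 6.94, 6.07 and 7.01 in controls and 7.33, 7.27 and 7.05 with the antagomir. Antagomir array 3 was only just above control array 3. The difference was 0.55 (SE 0.28, limma adjusted p = 0.691), and 0.24 without control array 2. Etfa had a difference of 0.49 (SE 0.26), and antagomir array 2 lay below control array 3.

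Promoters were searched for letters that known regulators of mitochondrial genes bind. RefSeq windows (GRCm38.p6) from 250 bases before to 50 after the start site were at hand for 27 of 33 members, and each motif was searched on both strands. The NRF1 motif (GCGCA, any base, then GCGC) was found in 3 of 27 members (Etfb, Etfdh and Acad10; 11.1%), against 5.19% of 27025 genes. The PPAR-RXR motif (AGGNCA repeated after any 1 base) was in 0 of 27, against 0.451%, and the ERR motif TNAAGGTCA in 0 of 27, against 1.43%. Its core AAGGTCA, which overlaps it, was in 2 of 27 (Acadm and Acacb; 7.41%), against 5.38%. The 160 bases before the start site of Etfb (chr7:43443912-43444071, plus strand) and Etfdh (chr3:79628768-79628927, minus strand) are shown with the NRF1 motif in capitals, since both genes had groups apart. Acad10, whose groups overlapped, is not shown, and a link between motif and difference was not tested. A match is a description of the letters and not of binding.
Etfb: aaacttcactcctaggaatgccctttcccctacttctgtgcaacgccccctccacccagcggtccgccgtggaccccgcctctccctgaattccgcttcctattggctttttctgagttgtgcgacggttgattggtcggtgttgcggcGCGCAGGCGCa
Etfdh: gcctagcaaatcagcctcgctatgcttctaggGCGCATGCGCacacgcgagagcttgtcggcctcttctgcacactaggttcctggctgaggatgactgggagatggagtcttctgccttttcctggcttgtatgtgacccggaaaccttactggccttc

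Other genes of fatty acid handling also had mostly higher means. Of 44 listed, 42 were tested, of which 39 were higher and 3 lower, with a median of 0.38 (62.6% of all genes were higher). None was called by limma after adjustment, 3 had an unadjusted p below 0.05, all higher, against 3.05% of all genes, and 11 were without overlap, all higher, against 8.78%. Without control array 2, 37 were higher with a median of 0.17 and 0 had an unadjusted p under 0.05. With median scaling 16 of 42 were higher, against 13% of all genes.

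Pnpla2, the triglyceride lipase of lipid droplets, had levels of 6.21, 5.64 and 6.28 in controls and 6.78, 6.38 and 6.85 with the antagomir, all above the controls. The difference was 0.63 (SE 0.24, limma adjusted p = 0.674), and 0.43 without control array 2. Lipe, hormone-sensitive lipase, was without overlap, with a difference of 0.84 (SE 0.33). Acot13 and Ucp3, a thioesterase and a mitochondrial uncoupling protein, had 0.32 (SE 0.14) and 0.64 (SE 0.29). With median scaling Acot13 (−0.15) turned lower.

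Slc25a20, the carnitine-acylcarnitine carrier of the shuttle, had a difference of 0.48 (SE 0.37) with overlap. Among regulators, Ppara, the nuclear receptor that drives fatty acid genes, had levels of 3.96, 3.01 and 4.02 in controls and 4.35, 4.23 and 4.17 with the antagomir, a difference of 0.59 (SE 0.29). Its coactivator Ppargc1a had 0.15 (SE 0.29), which turned to −0.17 without control array 2. Pdk4, which holds pyruvate back from oxidation, had 0.72 (SE 0.33). Control array 2 was the lowest array for each of these 4 genes.

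Marker genes of the cell types in the heart were read on the same arrays. Of 12 cardiomyocyte markers 12 were higher (median 0.25, with no limma call and 0 at an unadjusted p below 0.05). Their summed signal relative to the 75th percentile was 4344 to 4999 in controls and 5140 to 5586 with the antagomir. In 6 of the 12 every antagomir array lay above every control array, against 8.78% of all genes. Without control array 2 the 12 had a median of 0.13, and 6 were without overlap, against 10.2% of all genes. With quantile scaling 6 of the 12 were higher (median 0.01). Fewer cells of a type and less RNA per cell cannot be told apart in such tissue samples. Measured from the mean of the 12 cardiomyocyte markers, a scaling added after the data were seen, 25 of 33 fatty acid genes were higher, against 29.2% of all genes, with a median of 0.20, and 5 were without overlap, against 2.06% of all genes. Fabp3 (−0.07), Acsl3 (−0.035), Cpt1a (−0.20), Acad9 (−0.029), Acaa1a (−0.053) and Acad10 (−0.056) turned lower on that scale.

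The 10 fibroblast and scar markers were all lower, though Dcn hardly differed (−0.0016), and groups overlapped for Dcn and Pdgfra (−0.35). Sums were 813 to 1261 in controls, with control array 2 highest, and 392 to 590 with the antagomir. Dcn sets most of the antagomir sums. No marker of this list was called by limma after adjustment, and 8 had an unadjusted p below 0.05. Cthrc1, of that list, was well above background on 3 of 3 control arrays and 0 of 3 antagomir arrays. Of 6 white adipocyte markers tested all were higher. Their sums ran from 145 to 199 in controls and from 202 to 245 with the antagomir. Fabp4 sets most of these sums, and its groups overlapped (0.24, SE 0.18). Adipoq (adiponectin), which defines adipocytes, had levels of −5.88, −3.47 and −0.83 in controls and −2.30, 0.36 and 0.26 with the antagomir. For Adipoq control array 1 was lowest, not control array 2, and it was well above background on 2 of 3 control arrays and 3 of 3 antagomir arrays. Lep was above background on 0 of 6 arrays, and Ucp1, of brown fat, on 2 of 6. Of 10 endothelial markers 7 were lower (sums 190 to 223 and 205 to 216), and of 10 macrophage markers 8 (sums 87.1 to 91.5 and 56.8 to 126), with no limma call in either and 1 endothelial and 0 macrophage markers at an unadjusted p below 0.05. Of 6 smooth muscle markers 5 were lower (sums 104 to 160 and 77.2 to 102), and 3 of them, Cnn1 (−1.30), Tagln (−1.11) and Pdgfrb (−0.64), had an unadjusted p below 0.05 with no overlap and no limma call. Antagomir arrays 2 and 3 stood apart in atrial markers. Relative to the control mean the 4 atrial genes averaged 4.24 and 5.57 on them, −0.93 on antagomir array 1, and −1.30, −0.36 and 1.66 on the controls. Myl7, the atrial myosin light chain, had levels of −4.84, −4.95 and 0.13 in controls and −2.94, 3.47 and 5.23 with the antagomir. Nppa, which failing ventricle also makes, went the other way (−1.71). It sets most of the atrial sum on every array but antagomir array 3 (sums 393 to 633 and 32.96 to 814). The fatty acid genes had a median of 0.36, 0.52 and 0.49 without antagomir array 1, 2 and 3, in that order. Of brown adipocyte, erythroid and skeletal muscle markers tested, 2 of 3, 3 of 3 and 2 of 4 were higher. The lower brown marker, Dio2, was without overlap (−3.24, SE 0.78, limma adjusted p = 0.5565), and Cidea and Ppargc1a were higher by only 0.28 and 0.15. Pvalb, of the skeletal muscle list, was higher without overlap (1.16, SE 0.17, limma adjusted p = 0.497). The part of these cell types in the values of the fatty acid genes was not tested.

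**Figure D4:**
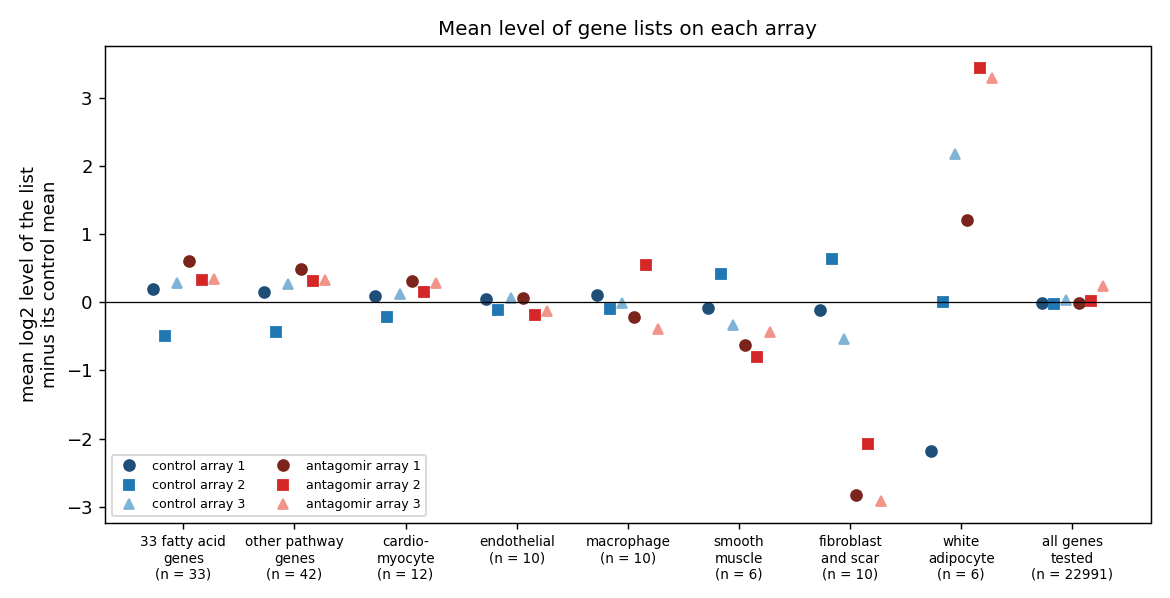
Mean log2 level of each gene list on each array minus its control mean (vertical axis, 75th percentile scaling), with 1 point per array and the number of genes tested under each list. The fatty acid genes span −0.49 to 0.60 with control array 2 lowest, as it is for other pathway genes and cardiomyocyte markers. Fibroblast and scar markers have control array 2 highest and all antagomir arrays lowest, and white adipocyte markers have control array 1 lowest.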

How the data were processed

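RNA of each heart sample was read on a 1-colour Agilent array, 6 arrays on 1 slide. The deposited intensities are scanner output of Agilent Feature Extraction 10.7.1.1, background-subtracted by that software, per the file headers. A deposited table of log2 values was normalised by the authors by a method not given in the sources used here, and served as an alternative. Its raw values matched the scanner signals within 1% for 100% of shared probes. Its sorted log2 values differed between arrays by an SD of at most 0.000585, as after quantile scaling. It therefore nearly repeats that setting and is not a separate one.

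From the processed signal, log2 values were taken and the 75th percentile of each array was subtracted. Control and outlier spots were left out. Genes with a probe well above background on at least 3 of 6 arrays were kept, 22991 in all, with the brightest probe per gene. The groups, taken from the labels, were tested by lmFit and eBayes (limma 3.58.1, R 4.3.3) with Benjamini-Hochberg adjustment across all genes kept. Only the fitting step was run on simulated data, with probes drawn independently and no array set apart. Alternatives were other scalings, background correction, filters, probe rules, a slide row or replicate block, array weights and each array left out. The 2 genes of each step with the smallest unadjusted p, and any lower gene, were described by array, as were 10 other pathway genes (the 6 with the smallest p and 4 set ones), of which 2 are not reported here. Others are named after their values were seen. Members and lists were chosen with earlier results of these data known. Probe positions are mm9, as in the files, and sequences are RefSeq GRCm38.p6.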

Additional observations from a re-analysis of the deposited data

How the results depend on the processing

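In every setting run no member passed the adjusted limma test, and the median of the members stayed above that of all genes. Median scaling, which shifts every gene by −0.47, moved most: 15 members were higher, 0 were without overlap and the median was −0.025, against −0.38 for all genes. Step medians there were −0.10 (uptake), −0.12 (activation), −0.065 (shuttle), −0.022 (oxidation) and 0.046 (electron transfer), and 16 other pathway genes were higher with a median of −0.094. Single genes that turned lower with it were Acaa1a (−0.27), Acacb (−0.085), Acad10 (−0.28), Acad9 (−0.25), Acadl (−0.025), Acads (−0.084), Acadvl (−0.048), Acsl3 (−0.26), Cd36 (−0.10), Cpt1a (−0.42), Cpt1b (−0.17), Cpt2 (−0.044), Echs1 (−0.0535), Fabp3 (−0.29), Hadhb (−0.019), Lpl (−0.10), Acot13 (−0.15) and Ppargc1a (−0.32). With median scaling the limma SE of each of these genes was 0.60, larger than its difference, so these signs are poorly determined. Members without overlap numbered 7 with quantile scaling (6.75% of all genes), 7 with normexp (6.49%), 6 in the authors' table (6.7%) and 5 relative to cardiomyocyte markers (2.06%), the setting chosen after seeing the data. The activation median was 0.11, 0.12 and 0.10 with quantile scaling, the authors' table and cardiomyocyte markers. Acsl3 and Fabp3 turned lower with quantile scaling (−0.099 and −0.027), and Acsl3 with normexp (−0.0445). The authors' table, which nearly repeats quantile scaling, gave −0.0995 for Acsl3 and −0.0265 for Fabp3. Relative to cardiomyocyte markers Acaa1a (−0.053), Acad10 (−0.056), Acad9 (−0.029), Acsl3 (−0.035), Cpt1a (−0.20), Fabp3 (−0.0695) and Ppargc1a (−0.10) were lower. With slide rows blocked, medians were 0.053 (uptake), 0.051 (activation), 0.085 (shuttle), 0.15 (oxidation) and 0.18 (electron transfer), and Ppargc1a was −0.19. Ppargc1a was −0.048 with array weights. Members with an unadjusted p below 0.05 numbered 2 with normexp, 1 with probes above background on all 6 arrays and 3 with a variance trend. The share of all genes at that p is not given for these settings. It was 3.05% higher and 4.16% lower in the main setting, so the counts are not read as a result. The cause of these moves was not tested.

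With each array left out in turn, 29 to 32 members were higher, 13 to 25 were without overlap, 0 to 4 had an unadjusted p below 0.05, and the median ran from 0.19 to 0.61. The 25 came without antagomir array 2 (23 higher, 2 lower), where 22.8% of all genes were without overlap and higher. The share of all genes without overlap and lower is not given there, so the 2 lower members are not read as a result. The 4 came without control array 3, where 7.7% of all genes had such a p. Over the arrays left out the share without overlap and higher ran from 10.2% to 22.8% of all genes. Step medians ran from 0.13 to 0.53 (uptake), 0.20 to 0.48 (activation), 0.17 to 0.56 (shuttle), 0.18 to 0.61 (oxidation) and 0.24 to 0.69 (electron transfer). Of the other pathway genes 37 to 41 were higher, with medians of 0.17 to 0.52. The lowest medians came without control array 2, where Cpt1a was −0.0073 and Ppargc1a −0.17 (up to 0.32 without control array 3). Without antagomir array 1 Acads was −0.033 (up to 0.65 without antagomir array 2) and Cpt1a −0.083, and without antagomir array 3 Acsl4 was 0.043. Genes called over all genes numbered 0 without any 1 control array and 2, 3 and 2 without antagomir arrays 1, 2 and 3.

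Deviations of same-numbered arrays correlated at 0.222, 0.142 and −0.049. Since not every pair was above 0.1, the numbers were not taken to pair the samples. With the replicate number as a block, 3 members had an unadjusted p below 0.05 and the median stayed at 0.45. The share of all genes at that p is not given for this block, so the count is not read as a result. Genes called over all genes numbered 3, and 199 with median scaling, 6 with array weights, 1 with quantile scaling, in the authors' table and without a filter, and 0 with normexp, the stricter filter and either block.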
